A study of Hordeum vulgare with 21 samples.

Results

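Late-rising genes of malting barley were defined here as genes whose mean transcript abundance at day 5 of germination was at least 10 TPM, at least 4 times the day 2 mean and more than 4 times the dry grain mean. TPM is a length-corrected share of the transcript pool of a library, scaled to the same total in each. The criteria were met by 97 of the 35826 listed genes. A mean of at least 10 TPM at day 5 was found for 10882 genes, 151 of these also met the day 2 criterion, and the dry grain criterion left out 54 of the 151. Members were thus chosen by their measured TPM in dry grain and at days 2 and 5, so those levels are descriptions without a test. Tests compared the stages that the choice did not use, which were day 0, day 1, day 3 and day 4. The spread in these tests was estimated over all 21 libraries, those of the choosing stages included.

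The libraries came from whole grain (labelled seed) of Hordeum vulgare cultivar Conrad, a spring barley of the 2-row type bred for malting in North America. There were 7 stages with 3 replicates each, A, B and C, giving 21 libraries. They were unmalted mature grain (Dry), grain at the end of a 38 h steep (DoG0), and grain after each of 5 days of germination at 17 °C (DoG1 to DoG5). The labels give all malted samples a charge of 110 g, 4 h immersions at 16 °C, 4 h air rests at 18 °C and 45% moisture. All grain came from 1 pooled lot of 5 crop samples, from which 3 malting runs were drawn, and no cultivar or treatment other than malting time was compared. What the p-values set differences against is the spread among malting runs of this lot, or among its dry samples, and part of that spread may be technical.

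A germinating cereal grain is a mixture of living and dead tissues. The embryo and its scutellum send gibberellin to the aleurone layer, which secretes hydrolases into the dead starchy endosperm, while the embryo grows a shoot and roots. As germination goes on, stored protein and starch are broken down, aleurone cells die, and the share of RNA that comes from seedling tissue changes. In whole-grain RNA, fewer cells of a type and less RNA per cell cannot be told apart.

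Library totals ran from 18145400 expected counts in DoG5 C to 31582116 in DoG1 C. The deposited tables do not pair gene IDs with gene names, and 0 of them were found among the 58438 genes of the reference table (assembly MorexV3_pseudomolecules_assembly). Members are therefore described by ID, position in the ID order and values, with no gene function, and no marker list of grain tissues was run. IDs are printed without their common start, HORVU.MOREX.r3. In them, the leading characters give the chromosome code and the trailing digits follow an order along it.

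As a group, the 97 genes made up a larger share of the transcript pool on each day from day 2 to day 5. Their summed abundance in replicates A, B and C was 1428, 1511 and 1097 TPM at DoG2. It was 4614, 3495 and 3373 TPM at DoG3. At DoG4 it reached 7020, 6832 and 5555 TPM, and at DoG5 8239, 9700 and 9053 TPM. Replicates of successive days did not overlap from DoG2 onwards. Without the 12 members with neighbouring IDs on chromosome 3H, described below, DoG3 and DoG4 did overlap. The sums of the other 85 were 3806, 2782 and 2710 TPM at DoG3 and 4814, 5298 and 3608 TPM at DoG4. The mean share of all TPM was 0.1345% at DoG2 and 0.8997% at DoG5 (SD 0.0219 and 0.0732 percentage points, n = 3). In the stages before day 2 the sums were lower, with means of 415 ± 134 TPM in dry grain, 356 ± 51.6 TPM at DoG0 and 826 ± 212 TPM at DoG1 (SD, n = 3). Dry grain and DoG0 overlapped, whereas every DoG1 library was above every DoG0 library.

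**Figure D1:**
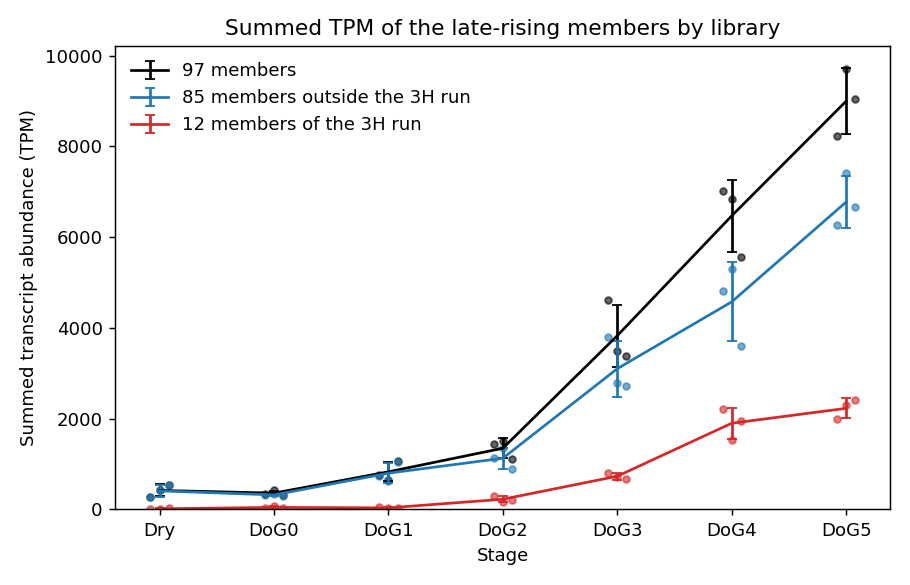
Summed abundance in TPM (y axis) of the 97 members, of 12 members with neighbouring IDs on chromosome 3H and of the other 85, at 7 stages (x axis); points are libraries, lines join means and bars are SD over 3 replicates. The sum of the 97 went from a mean of 1345 TPM at DoG2 to 8997 TPM at DoG5, and that of the 12 from 220.4 to 2225 TPM.

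The typical member was barely detectable in early grain. The median of the members' mean abundance was 0.567 TPM in dry grain, 0.570 at DoG0, 1.16 at DoG1, 3.94 at DoG2, 11.5 at DoG3, 15.3 at DoG4 and 24.8 at DoG5. For all 10882 genes of at least 10 TPM at DoG5 the same median was 24.6 TPM in dry grain. It stayed between 32.8 and 35.3 TPM from DoG0 to DoG5. Of the 97 members, 62 had a mean under 1 TPM in dry grain, 46 at DoG1, 7 at DoG2 and 4 at DoG4. After rounding, 11 members had no count in any dry grain library. The member with the highest lower bound among these 11, which was chosen for that, was 7HG0747470. It had no count in 3 dry libraries and 45.0, 32.7 and 40.6 TPM at DoG5, at least 356-fold higher when a floor of 3 counts per dry library is used. Such floors cover counting error only. At DoG5 the members ranged from 10.2 to 1159 TPM, with 18 of them at 100 TPM or more, 40 from 20 to under 100 TPM and 39 under 20 TPM.

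The name late-rising described most members but not every one. The mean went up at each step from DoG2 to DoG3, DoG4 and DoG5 in 71 of 97, and at each step from DoG1 to DoG5 in 54. The highest of the 7 stage means was at DoG5 for 77 members, at DoG4 for 9, at DoG3 for 4, at DoG1 for 5 and at DoG0 for 2. Every DoG5 library was above every DoG2 and dry library for 85 of the 97, where the background over tested genes was 13.9%. That comparison was part of the choice, so nothing is read from it. Near the limits, the member closest to the day 2 criterion had a DoG5 to DoG2 ratio of 4.02 and the closest gene outside one of 3.93, with 16 members and 17 outside genes within 10% of the limit. The nearest member and outside gene were at 5.31 and 4.00 (3.999) for the ratio to dry grain and at 10.2 and 9.79 TPM for the abundance floor.

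**Figure D2:**
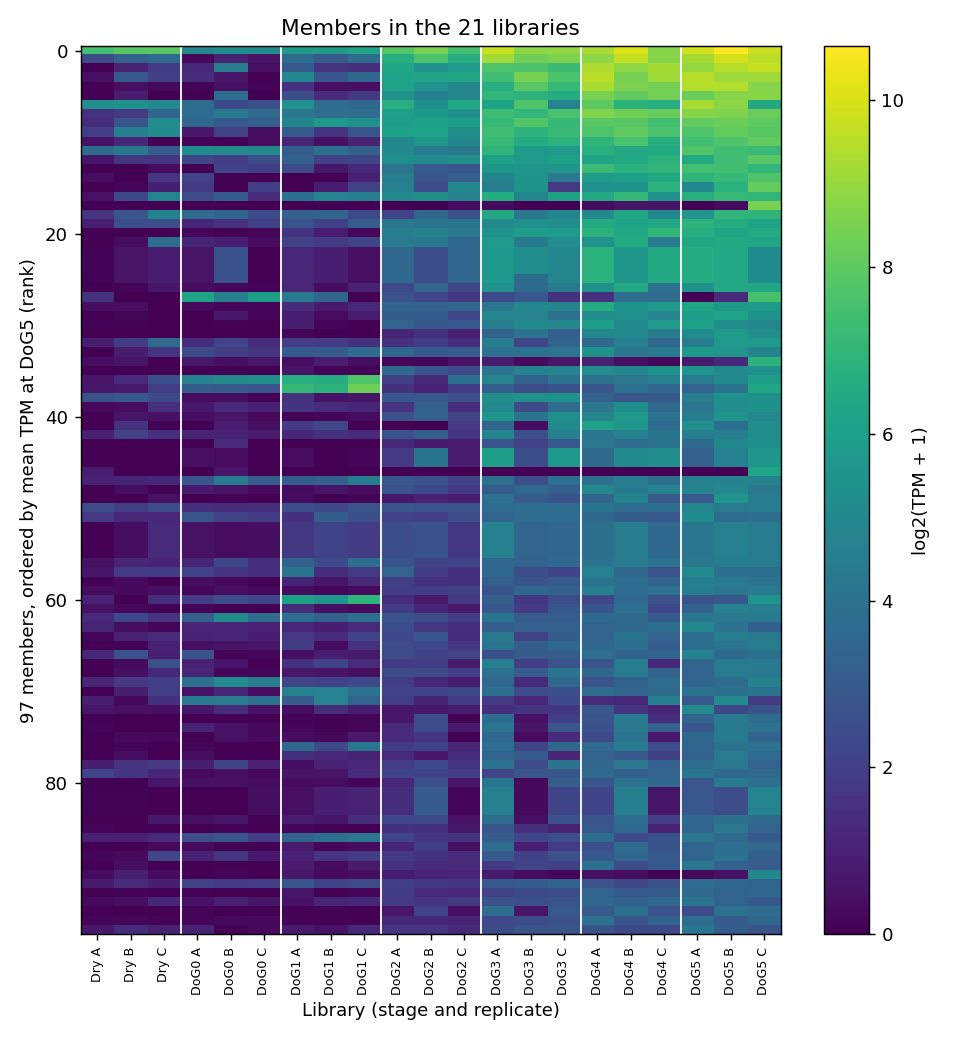
Abundance of each of the 97 members (rows, ordered by mean TPM at DoG5, counted from 0) in the 21 libraries (columns, white lines between stages), as colour on a log2(TPM + 1) scale. Most rows are dark up to DoG1 and brighten from DoG2 to DoG5, a few are bright at DoG0 or DoG1, and 5 are bright at DoG5 in replicate C but not in A or B.

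As a ratio, the step from day 2 to day 3 was the largest of the late steps. The median ratio of a member's means was 3.21 from DoG2 to DoG3, 1.47 from DoG3 to DoG4 and 1.45 from DoG4 to DoG5, where genes of at least 10 TPM had medians of 1.01, 1.00 (1.004) and 1.00 (1.001). By DoG3 the median member had covered 35.7% of its DoG2 to DoG5 difference (quartiles 23.9 and 47.8%), and by DoG4 62.9% (quartiles 46.4 and 81.1%). The DoG2 and DoG5 ends of these ratios were used in the choice. When the criteria were applied to 2 replicate letters at a time, 108, 102 and 83 genes were chosen without A, B and C. Of these, 86, 90 and 68 were also members. In the letter left out, DoG5 was above DoG2 for 101, 96 and 79 of all genes so chosen, with median ratios of 4.39, 4.83 and 6.88. The ratio was at least 4 for 58, 72 and 61. These shares were not counted for other genes in a single letter, so the counts have no background. Over genes of at least 10 TPM at DoG5, the median DoG5 to DoG2 ratio of stage means was 1.03. The medians in the letters used for the choice were 6.12, 6.10 and 6.46, so the left-out ratio was lower for A and B and higher for C.

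Of the 97 members, 94 passed the filter on low counts and entered the tests. The other 3 had too few libraries with counts, and members that passed did so in part through the late stages where they are high. An edgeR quasi-likelihood F-test over DoG0, DoG1, DoG3 and DoG4 found 88 of the 94 different at an adjusted p under 0.05, against a background of 79.2% of the tested genes and 84.45% of those with at least 10 TPM at DoG5. The share of members was near that of the other abundant genes, and 6 tested members did not pass.

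Between DoG1 and DoG3, on either side of the day 2 stage, most members rose. With edgeR and adjusted p-values, 71 of 94 were higher and 4 lower at DoG3, against backgrounds of 25.6% higher and 23.8% lower. The median log2 fold change was 3.63 over the 94 and -0.01 over all tested genes. By DoG4, 74 had risen and 3 had fallen relative to DoG1 (backgrounds 26.3% and 25.7%), with medians of 3.81 and -0.02. Relative to grain out of the steep, 83 had risen and 1 had fallen at DoG4 (backgrounds 36.0% and 31.6%), with medians of 5.35 and 0.05. These comparisons share libraries and are not independent of each other.

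The first day of germination was mixed. From DoG0 to DoG1, 31 of 94 members rose and 4 fell, where 28.4% of all tested genes rose and 23.8% fell. The share that rose was near the background, the share that fell was below it, and 59 members did not pass. The median log2 fold change was 1.20 over members and 0.06 over all tested genes.

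The step from DoG3 to DoG4 was mostly not resolved for single members. With edgeR over the 21 libraries 0 of 94 members were higher and 1 was lower, and the backgrounds were 0.0145% and 0.136%. The median log2 fold change was 0.52 over members and -0.004 (-0.0044) over all tested genes. Values were positive for 75 members and negative for 19, and over the 20637 tested genes positive for 10150 and negative for 10468. At an unadjusted p under 0.05, 16 members were higher and 2 lower (backgrounds 4.4% and 5.81%). Every DoG4 library was above every DoG3 library for 29 of the 97 members and below for 2, against backgrounds of 17.4% and 12.3%. When the fit was limited to the 6 libraries of DoG3 and DoG4, 12 members were higher and 2 lower (backgrounds 2.12% and 3.26%). DESeq2 gave 3 higher and 2 lower (0.402% and 0.664%), and limma on log2(TPM + 1) gave 3 higher and 1 lower (0.189% and 0.0824%).

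**Figure D3:**
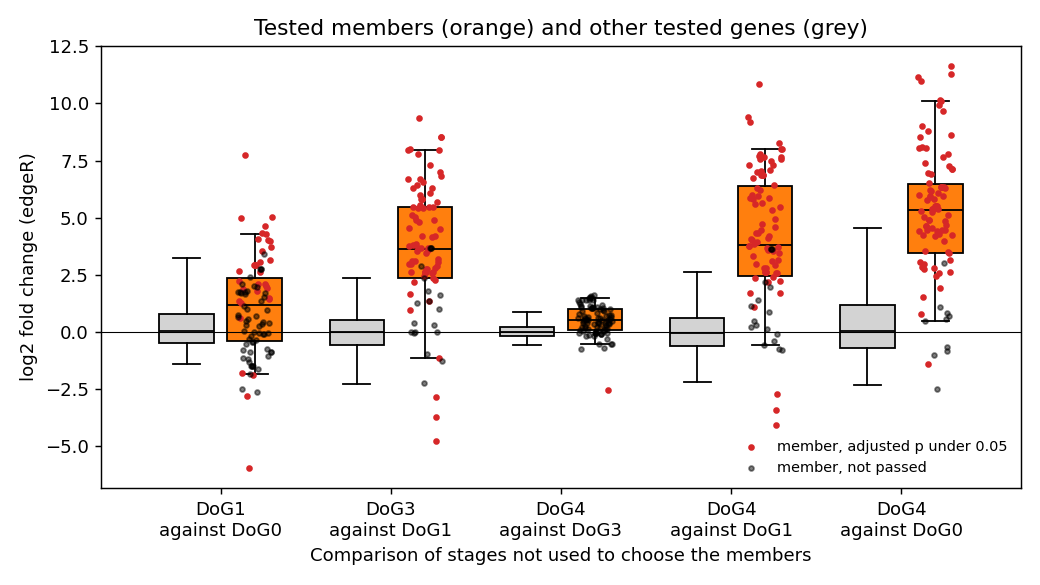
edgeR log2 fold changes (y axis) in the 5 comparisons of stages not used to choose the members (x axis). Orange boxes and points are the 94 tested members and grey boxes the other tested genes; boxes span the quartiles, whiskers the 5th to 95th percentile, and red points have an adjusted p under 0.05. The members' boxes lie above the grey boxes at DoG3 and DoG4 against the early stages, and overlap them for DoG1 against DoG0.

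The spread between replicates was wide for these genes. Among the 67 members with at least 10 TPM at DoG4, the median coefficient of variation between the 3 replicates was 34.8%, against 5.71% for all genes of at least 10 TPM. At DoG5 the medians were 33.3% over 97 members and 13.8% over the 10882 genes. These medians are descriptions, and the DoG5 values were among those used in the choice.

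The most abundant member at DoG5 was 5HG0423060. In dry grain it had 175, 237 and 242 TPM in A, B and C, at DoG0 29.7, 37.4 and 36.4 TPM and at DoG1 57.9, 56.6 and 72.1 TPM. At DoG2 it had 220, 366 and 176 TPM, at DoG3 855, 452 and 486 TPM, at DoG4 625, 1099 and 424 TPM, and at DoG5 965, 1604 and 908 TPM. It was thus abundant in dry grain, lower in every library at the end of the steep, and higher in every library of days 3 to 5 than in any earlier stage. DoG3 and DoG4 overlapped, with replicate A highest at DoG3 and replicate B highest at DoG4 and DoG5. From DoG1 to DoG3 the log2 fold change was 3.46 (SE 0.37, edgeR adjusted p = 1.04e-06), and from DoG0 to DoG1 it was 0.72 (SE 0.34, edgeR adjusted p = 0.0882), which did not pass.

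The second, 5HG0473560, had no such dry grain level. Its dry values were 4.63, 8.71 and 11.6 TPM, and at DoG0 they were 0.18, 1.07 and 0.49 TPM. It had 12.8, 7.16 and 13.0 TPM at DoG1, 100 (100.2), 196 and 99.1 TPM at DoG2 and 578, 323 and 371 TPM at DoG3. DoG4 values were 462, 832 and 415 TPM and DoG5 values 589, 968 and 747 TPM. DoG0 lay below dry grain and each stage from DoG1 to DoG3 above the one before, without overlap, while DoG4 overlapped both DoG3 and DoG5. The rise from DoG0 to DoG1 was 4.05 on the log2 scale (SE 0.56, edgeR adjusted p = 1.69e-05) and that from DoG1 to DoG3 was 5.48 (SE 0.43, edgeR adjusted p = 2.77e-08). The change from DoG3 to DoG4 was 0.38 (SE 0.34, edgeR adjusted p = 0.773). The pair had the highest and second highest DoG5 means by the rule for named IDs, and both had fractional expected counts in at least 1 library.

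Position in the ID order was not used in the choice. Members carried the chromosome codes 1H (6 members), 2H (18), 3H (19), 4H (10), 5H (14), 6H (8), 7H (21) and unplaced (1). Of the 97, 48 lay in 15 runs in which consecutive member IDs differed by at most 200, where the commonest step between listed neighbours was 10. Of these runs 10 were pairs, and the largest held 12 members on 3H. With a limit of 100 or 50 the runs held 44 or 40 members, and the largest still held 12. No such count was made for other genes, so whether members lie closer together than other genes was not tested. Some nearby members had identical values in all libraries: 12 IDs fell into 4 such groups, which left 89 distinct profiles.

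Expected counts that are not whole arise where a read is divided between genes it matches equally well. Such counts occurred in 53 of 97 members (54.6%), in 18.8% of the other genes of at least 10 TPM at DoG5 and in 17.1% of all listed genes. For these 53 the value of a single ID is uncertain, since reads could be split between similar IDs. Among the 44 members with whole counts, 41 were tested, and 34 rose and 0 fell from DoG1 to DoG3, against backgrounds of 25.6% and 23.8%. Transcripts of members were also short: the median relative length, expected count over TPM scaled to the library, was 0.585 for members and 1.04 for genes of at least 10 TPM at DoG5.

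The 12 members on 3H were 12 of the 18 listed IDs numbered 330600 to 330780, gave 10 distinct profiles, and all had fractional counts. Their summed abundance in A, B and C was 41.8, 25.2 and 24.1 TPM at DoG1 and 294, 156 and 211 TPM at DoG2. It was 808, 713 and 663 TPM at DoG3, 2206, 1534 and 1947 TPM at DoG4, and 1979, 2297 and 2398 TPM at DoG5. The stages from DoG1 to DoG4 did not overlap, whereas DoG4 and DoG5 did. In dry grain the sums were 2.58, 8.27 and 19.1 TPM, and at DoG0 they were 21.2, 82.3 and 18.3 TPM, with B far above A and C. Single members had DoG5 means from 26.9 to 675 TPM. The run held about 2225 of the 8997 TPM of the whole group at DoG5, as means over 3 libraries.

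The summed mean of the run went from 728 ± 73.2 TPM at DoG3 to 1896 ± 339 TPM at DoG4 (SD, n = 3), while the other 85 members went from 3099 ± 613 to 4573 ± 870 TPM and then to 6773 ± 580 TPM. From DoG3 to DoG4 the 12 log2 fold changes were all positive, from 1.05 to 1.59, and none passed in edgeR over the 21 libraries. In the fit of the 6 libraries of those days, 5 of the 12 were higher (background 2.12%). From DoG1 to DoG4 all 12 rose (background 26.3%), with a median log2 fold change of 6.86, and from DoG1 to DoG3 11 of 12 rose (background 25.6%). From DoG0 to DoG1 11 of the 12 values were negative and 1 member passed, where 23.8% of all tested genes fell. These signs rested on DoG0 B: in mean TPM 11 of the 12 were lower at DoG1 than at DoG0, but without DoG0 B 2 were lower, 9 higher and 1 equal. The run was singled out after its values were seen, and similar sequences share reads, so its 12 IDs are not 12 independent observations.

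**Figure D4:**
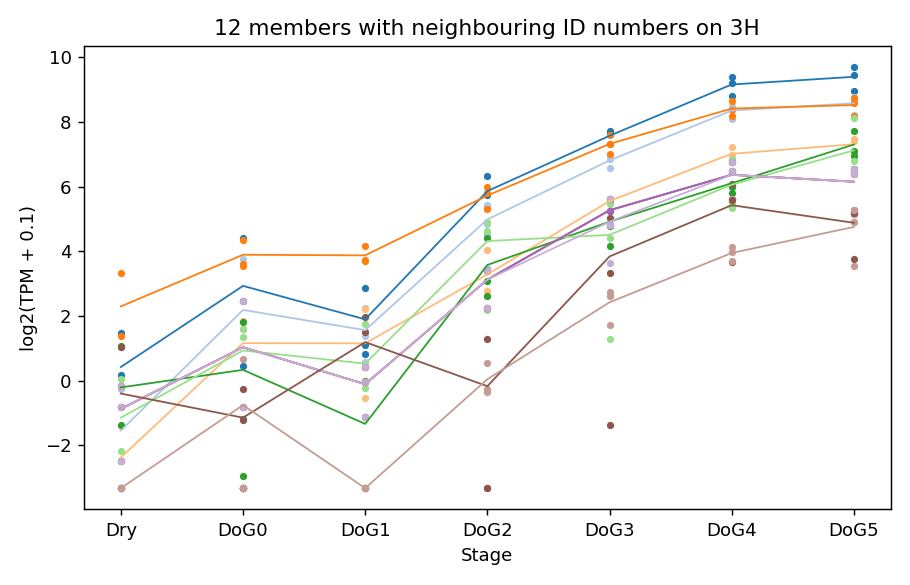
Abundance on a log2(TPM + 0.1) scale (y axis) of the 12 neighbouring members on chromosome 3H at 7 stages (x axis), 1 colour per member (members with identical values coincide). Points are libraries and lines join the log of the stage means; the means of all 12 were above 1 TPM from DoG3 onwards, and the 12 ranged from 26.9 to 675 TPM at DoG5.

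The member that passed for a fall from DoG0 to DoG1 within that run was 3HG0330600. It had 0, 1.48 and 0 TPM at DoG0 and 0 TPM in all dry and DoG1 libraries. All 22 of its DoG0 counts were in replicate B, so the fall (edgeR adjusted p = 0.0329) rested on that library and was gone without it. It also did not pass with limma, with only the 6 libraries of these stages, with a replicate block or without any 1 of the DoG1 libraries. In the last 3 of these settings the fitted log2 fold change was from -6.03 to -5.92, against -5.95 with all libraries, and it depends on the prior of the fit. Against a floor of 3 counts per DoG1 library, DoG0 was at least 2.84-fold higher. Later values were 1.37, 0.69 and 0.74 TPM at DoG2, 6.10, 3.17 and 6.55 TPM at DoG3, 17.6, 13.0 and 15.5 TPM at DoG4, and 11.6, 30.2 and 39.0 TPM at DoG5. It was higher in every DoG4 library than in any DoG3 library, and the level at DoG4 was at least 84.3-fold that at DoG1 by the same floor.

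A minority of members dipped at day 2. In 13 of 97, with at least 1 TPM, the DoG1 mean was at least 2 times the DoG2 mean, and in 8 of these the DoG0 mean was as well. A low DoG2 level was required by the choice of members and a high DoG1 level by the class, so this is a description and no test was made over the class.

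A member of this class that fell on the first day, named by the rule for falls, was 3HG0282640. It had 14.2, 34.6 and 22.0 TPM at DoG0, 3.64, 3.24 and 4.29 TPM at DoG1 and 2.83, 1.30 and 0.74 TPM at DoG2. It then had 11.1, 1.44 and 11.3 TPM at DoG3, 5.63, 8.86 and 12.4 TPM at DoG4 and 10.1, 12.7 and 24.7 TPM at DoG5, against 1.17, 2.45 and 3.08 TPM in dry grain. Its level was thus highest at the end of the steep, where all libraries were above all of DoG1, and DoG5 overlapped DoG0. The fall from DoG0 to DoG1 was -2.81 on the log2 scale (SE 0.61, edgeR adjusted p = 0.000984). It was also the only member that was lower at DoG4 than at DoG0 (log2 -1.39, SE 0.58, edgeR adjusted p = 0.0407), a call that was lost without DoG0 B, DoG0 C, DoG4 A or DoG4 B and with 2 of the other settings.

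The members with the strongest day 1 peak were 3 consecutive IDs on 7H, 7HG0664250, 7HG0664260 and 7HG0664270, singled out after their values were seen. At DoG1 the first had 136, 113 and 316 TPM, the second 65.4, 45.5 and 119 TPM and the third 105, 96.8 and 207 TPM in A, B and C. At DoG2 their sum was 6.60, 2.94 and 18.8 TPM, and at DoG5 it was 34.2, 56.7 and 184 TPM. Replicate C was highest at DoG1, DoG2 and DoG5, and every DoG1 library was above every DoG5 library. They rose from DoG0 to DoG1 by log2 4.65 (SE 0.70), 4.27 (SE 0.85) and 2.03 (SE 0.66), with edgeR adjusted p = 3.72e-05, 0.000489 and 0.0154. They were the 3 members that were lower at DoG4 than at DoG1, with log2 fold changes of -4.08, -3.43 and -2.70. The other member that fell from DoG1 to DoG3 was 7HG0728750 (log2 -1.14, edgeR adjusted p = 0.039). The 3 consecutive IDs all had fractional counts.

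The only member that passed from DoG3 to DoG4 was 7HG0675260, named for that reason. It had 37.3, 42.1 and 41.5 TPM at DoG3, 8.48, 6.03 and 7.12 TPM at DoG4, and 21.3, 39.8 and 39.1 TPM at DoG5. Day 4 was below day 3 and day 5 in every library, with tight replicates at DoG3 and DoG4. The fall was -2.53 on the log2 scale (SE 0.35, edgeR adjusted p = 0.00504), and the call was lost without DoG4 B or DoG4 C. Its counts were whole in all libraries.

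At DoG5, 5 members were carried almost wholly by replicate C, with at least 10 times the level of A and of B. They are named because of this and were found after the values were seen. In A, B and C, 7HG0715130 had 0, 0.25 and 365 TPM, 5HG0440840 had 0, 1.48 and 185 TPM and 4HG0391610 had 0.70, 1.26 and 116 TPM. In the same order, 2HG0134800 had 0, 0 and 79.0 TPM and 6HG0625770 had 0.16, 0.44 and 32.5 TPM. DoG5 C was also the library with the lowest total. Over all genes with a mean of at least 10 TPM, DoG5 C carried 5 genes in this way, all of them members, DoG5 A carried 5 others and DoG5 B 0. Of the 5, 3 did not pass the count filter. Without these 5 the summed abundance at DoG5 was 8238, 9697 and 8275 TPM, and so remained above that of DoG4 in every library.

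The membership depended on single libraries in other ways too. Without DoG5 A, B or C in turn the criteria gave 104, 95 and 101 genes, of which 83, 87 and 82 were among the 97. Thus 15 members, the 5 above among them, would not have been chosen without DoG5 C, 14 without DoG5 A and 10 without DoG5 B. Without DoG2 C they gave 78 genes, 76 of them among the 97. Without any one of the other DoG2 or dry libraries, at least 92 of the 97 were kept.

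Some members deviated from their stage means in the same libraries. Deviations of log2(TPM + 0.5) from the stage mean were correlated with those of 5HG0473560 over the 12 libraries of DoG2 to DoG5. This is a description without a test, and the DoG2 and DoG5 values were among those used in the choice. Taking out the stage means left 8 residual degrees of freedom per pair of profiles. Members also had a wider spread between replicates than other abundant genes, and the part of this in the shares below was not tested. Pearson's r was over 0.8 for 16 of the 88 other distinct profiles (18.2%) and for 44 of 10785 other genes of at least 10 TPM at DoG5 (0.408%). The profile most like it was that of 5HG0423060 (r = 0.94, 12 libraries). The 16 profiles carried codes of 6 chromosomes, with 1 on 1H, 3 on 2H, 4 on 3H, 4 on 4H, 2 on 5H and 2 on 7H, and 0 belonged to the 3H run. The 4 on 4H were 4HG0418810, 4HG0419020, 4HG0419050 and 4HG0419220, the last 3 in 1 run of nearby IDs. All 4 had fractional counts, so reads could be shared between them. For 13 profiles (14.8%) r was under -0.5, against 9.71% of the other genes.

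The 17 profiles were selected for this likeness, so that they share high and low libraries is fixed by the selection, and the values only show which libraries these were. All 17 were above their stage mean in DoG2 B, DoG3 A and DoG4 B, with median deviations of 0.77, 1.15 and 0.88 on the log2 scale. All 17 were below it in DoG2 C, DoG3 B, DoG4 C and DoG5 A, with medians of -0.67, -1.15, -0.52 and -0.46. Their summed abundance was 1958, 948 and 1133 TPM in A, B and C of DoG3 and 1409, 2568 and 1076 TPM at DoG4. DoG4 C was therefore close to DoG3 C, and DoG4 A below DoG3 A, while the mean over replicates was higher at DoG4. None of the 10 profiles of the 3H run had an r over 0.8, and their medians were 0.45 in DoG2 A, -0.59 in DoG2 B and -0.24 in DoG4 B. All these values share the same 12 libraries, and with them depth and malting run, whose part in the pattern was not tested.

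**Figure D5:**
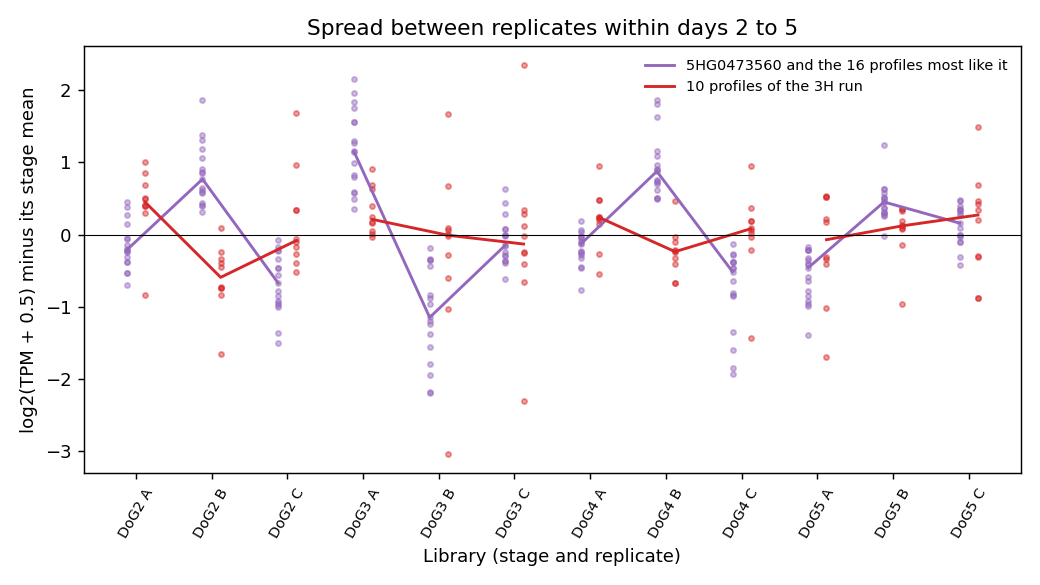
Deviation of log2(TPM + 0.5) from the stage mean (y axis) in the 12 libraries of DoG2 to DoG5 (x axis) for 5HG0473560 with the 16 profiles most like it (purple) and the 10 profiles of the 3H run (red); points are profiles and lines join medians within a stage. The purple medians are high in DoG3 A (1.15) and DoG4 B (0.88) and low in DoG3 B (-1.15), a likeness for which these profiles were selected, and the red medians in those libraries are 0.21, -0.24 and -0.01.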

How the data were processed

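Poly-A RNA from 21 whole-grain samples was sequenced from TruSeq Stranded mRNA libraries, per the labels' protocols. The authors deposited TPM and expected counts per gene, the latter being estimates that can be fractions of a read. The submitters' processing notes list STAR and RSEM. Not given in the sources used here are their versions, the genome build, annotation, strand setting and read filters. How reads were shared between similar genes can change the values of single IDs.

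Members were chosen on the TPM means. Expected counts were rounded and filtered with filterByExpr by stage (minimum count 10, minimum total 15), which kept 20637 genes. One edgeR 4.0.16 quasi-likelihood fit (R 4.3.3, TMM) of 7 stage means gave all tests, with standard errors from the F statistic and Benjamini-Hochberg adjustment over all tested genes at 0.05. The fit was tested on simulated data. DESeq2 1.42.0 and limma 3.58.1 on log2(TPM + 1) or log2(TPM + 0.1) served as alternatives, beside other scalings, filters and left-out libraries. Replicates of a stage always differed by more than counting noise, with a chi-square of 8.91 to 135 for each degree of freedom.

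The rule for named IDs gave the 2 members with the highest DoG5 mean and the 2 with the largest fall from DoG0 to DoG1 at an adjusted p under 0.05. Other IDs in the text were named outside this rule, for traits seen in their values. Planned gene lists needed names and were not run. The members and lists were chosen with earlier results of these data known. The runs of IDs, the members carried by 1 library and the shared deviations were looked at after the values were seen.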

Additional observations from a re-analysis of the deposited data

How the results depend on the processing

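The number of members was 58 with a floor of 20 TPM, 159 with a fold of 3, 49 with a fold of 6, and 23 when the lowest DoG5 replicate had to be 4 times the highest DoG2 and dry replicates. A floor of 5 TPM gave 143, TMM-scaled CPM, which has no length correction, 68, medians 93 and leaving out a replicate letter 83 to 108. The counts of members that rose from DoG1 to DoG3, DoG1 to DoG4 and DoG0 to DoG4 stayed within 1.5 times of those given above in every setting run on all members. Among members with whole counts 14 rose and 0 fell from DoG0 to DoG1, 34 and 0 from DoG1 to DoG3, 33 and 0 from DoG1 to DoG4, and 37 and 0 from DoG0 to DoG4; 37 passed the F-test. These counts are smaller because 41 members were tested.

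Members lower from DoG0 to DoG1 numbered 2 with limma on log2(TPM + 1) and 2 to 5 when 1 library was left out. From DoG3 to DoG4, 31 genes passed over all genes, 18 with library size only, 20 with no filter, 56 with limma on log2(TPM + 1), 220 with DESeq2, 1109 with only the 6 libraries, and 1 to 8 when 1 library was left out. Members higher were 3, 3 and 12 with limma, DESeq2 and the 6 libraries, and members lower 2 with DESeq2, 2 with the 6 libraries and 0 to 1 when 1 library was left out. The cause was not tested. Members lower from DoG0 to DoG4 were 0 with library size only or limma on log2(TPM + 0.1), 3 with only the 6 libraries, 2 for members chosen without DoG5 C, and 0 to 2 when 1 library was left out. Among the 4 IDs given by the rule for named IDs, the fall of 3HG0330600 from DoG0 to DoG1 was lost without DoG0 B (0.0, from -6.57 to 0.0 when 1 library was left out). The changes of these 4 that turned sign were those of 5HG0423060 from DoG3 to DoG4 (-0.21 without DoG4 B, range -0.21 to 0.57) and of 3HG0282640 from DoG3 to DoG4 (-0.33 without DoG3 B, -0.15 without DoG4 C, range -0.33 to 0.49).

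The labels do not say that a letter follows 1 malting run through the stages, so the letters were not taken to pair samples. Deviations of same-lettered libraries of different stages had r from -0.35 to 0.20 (63 pairs, 11 over 0.1). Those of different letters had r from -0.23 to 0.36 (126 pairs, 21 over 0.1). This does not decide whether the letters pair samples, since deviations from means of 3 libraries are tied to each other. If each of the 3 malting runs gave samples of several stages, libraries of different stages are not independent. The main fit has no term for that. With a replicate block 30 members rose and 3 fell from DoG0 to DoG1, 70 and 4 from DoG1 to DoG3, 0 and 1 from DoG3 to DoG4, 73 and 3 from DoG1 to DoG4 and 82 and 1 from DoG0 to DoG4, and 88 passed the F-test. Members near 0 counts in early stages have fold changes that depend on the floor. With the 1 member lacking DoG1 counts at its bound and the 1 without a fold left out, the median from DoG0 to DoG1 was 1.15.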

Other observations

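The genes that met the abundance and day 2 criteria but not the dry grain criterion numbered 54. DoG3 A carried 6 genes with a mean of at least 10 TPM at that stage at 10 times or more the level of both other replicates, and Dry C carried 13. None of these belonged to the 97 members.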
